A study of Homo sapiens with 8 samples.

Results

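The H3K36me2 regions of human chromosomes 4, 13 and 18 were examined in neural progenitors differentiated from H9, a widely used line of human embryonic stem cells. They are all regions that the 3 deposited H3K36me2 lists place on these chromosomes, chosen by chromosome alone. There are 10253 of them among the 60685 regions of the 3 lists: 3378 of 19501 in sh1, 3709 of 21493 in sh4 and 3166 of 19691 in NC. The sh1 and sh4 cells had received a lentivirus with one of the 2 hairpins against KDM2A as stem cells, and the NC cells a control lentivirus. All 3 groups were selected with puromycin before differentiation, and all come from the same cell line. A KDM2A peak list from NC cells completes the data, and the 4 inputs of the series enter only through the authors' folds. Each group is 1 library, so no difference below has a replicate check and none was tested. The intervals given are 95% intervals that cover counting error only. Whether the hairpins lowered KDM2A was not measured in these lists, since the only KDM2A list used here is from NC cells. Since chromatin of many cells is pooled, fewer marked cells and less mark per cell cannot be told apart.

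H3K36me2, dimethylation of lysine 36 on histone H3, is laid down by the NSD enzymes and by ASH1L over broad stretches of genes and of sequence between genes. KDM2A is a demethylase that removes it. Its CXXC zinc finger binds DNA with unmethylated CG steps, and so the enzyme gathers at CpG islands, which cover the starts of many genes. Gene-poor chromosomes have fewer such starts, and much of their sequence lies in long stretches between genes that tend to sit near the nuclear edge.

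The label of gene-poor fits the RefSeq annotation of GRCh38.p14. Chromosomes 18, 13 and 4 had the 3 lowest densities of protein-coding genes among chromosomes 1 to 22 and X, with 3.36, 3.49 and 4.03 genes per Mb. Together they held 1368 genes in 365.9 Mb, or 3.74 genes per Mb, against 7.26 genes per Mb on the other chromosomes. Sequence here means the 100 kb windows that hold at least 1 KDM2A peak, which leaves out centromeres and other gaps.

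Gene starts with different CG content are shown, some near KDM2A peaks of high fold and some inside H3K36me2 regions. Each line gives the 250 bases before a listed start, on the strand of the gene, from RefSeq for GRCh38.p14. Capitals mark CG steps, which read the same on both strands. The start of KCNIP4 (chr4:21948773-21949022, minus strand), a partner of A-type potassium channels, had the highest KDM2A fold within 500 bp of a start on these chromosomes, and AP1AR (chr4:112231537-112231786, plus strand), a regulator of endosome transport, the next. Both KDM2A peaks lay outside the printed bases, at chr4:21948432-21948631 for KCNIP4 and at chr4:112232101-112232611 for AP1AR. DRD5 (chr4:9781384-9781633, plus strand), a dopamine receptor, is a CG-rich start inside an NC region. LOC124903173 (chr13:48506807-48507056, minus strand) is a CG-poor start inside an NC region. A listed start of CLNK (chr4:10684769-10685018, minus strand), an adaptor of immune cell signalling, lay inside regions of both hairpins and not of NC.
KCNIP4: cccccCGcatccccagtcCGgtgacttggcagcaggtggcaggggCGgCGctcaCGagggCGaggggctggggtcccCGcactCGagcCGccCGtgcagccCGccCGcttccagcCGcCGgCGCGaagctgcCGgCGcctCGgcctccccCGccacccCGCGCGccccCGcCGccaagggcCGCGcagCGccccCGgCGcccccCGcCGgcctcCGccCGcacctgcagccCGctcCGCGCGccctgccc
AP1AR: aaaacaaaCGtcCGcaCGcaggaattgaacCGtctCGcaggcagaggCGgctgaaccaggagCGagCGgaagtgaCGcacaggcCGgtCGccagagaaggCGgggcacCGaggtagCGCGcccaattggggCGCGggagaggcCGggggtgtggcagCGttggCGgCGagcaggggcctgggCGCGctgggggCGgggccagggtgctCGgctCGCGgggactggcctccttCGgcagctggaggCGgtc
DRD5: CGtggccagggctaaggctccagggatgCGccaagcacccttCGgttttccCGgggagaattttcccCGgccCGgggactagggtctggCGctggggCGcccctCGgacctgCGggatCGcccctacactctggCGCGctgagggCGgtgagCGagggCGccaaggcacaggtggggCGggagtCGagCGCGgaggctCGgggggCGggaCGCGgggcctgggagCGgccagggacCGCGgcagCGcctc
LOC124903173: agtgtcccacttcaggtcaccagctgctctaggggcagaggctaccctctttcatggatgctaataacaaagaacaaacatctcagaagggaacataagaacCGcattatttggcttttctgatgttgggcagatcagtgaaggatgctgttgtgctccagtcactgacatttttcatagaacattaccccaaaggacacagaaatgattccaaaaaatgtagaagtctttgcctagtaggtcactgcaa
CLNK: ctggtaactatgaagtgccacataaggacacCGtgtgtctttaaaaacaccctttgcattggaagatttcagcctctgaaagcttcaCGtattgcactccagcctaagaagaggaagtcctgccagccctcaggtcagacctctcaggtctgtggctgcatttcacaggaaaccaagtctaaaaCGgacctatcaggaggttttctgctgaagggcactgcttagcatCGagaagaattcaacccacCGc
These windows hold 38 CG steps at KCNIP4, 29 at AP1AR, 28 at DRD5, 1 at LOC124903173 and 5 at CLNK. In windows of 300 bases around the 1190 listed starts of the chromosomes (250 bases before to 50 after), 97.6% held at least 1 CG step and 66.6% held 15 or more.

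H3K36me2 regions were denser on chromosomes 4, 13 and 18 than on the other chromosomes in each library. There were 9.23 regions per Mb in sh1, 10.1 in sh4 and 8.65 in NC, where the other chromosomes had 6.34 in sh1, 6.99 in sh4 and 6.50 in NC. The regions covered 4.28% of the sequence in sh1, 4.82% in sh4 and 4.25% in NC, against 3.09% in sh1, 3.71% in sh4 and 3.39% in NC elsewhere. This is not particular to the 3 chromosomes, since some of the others were denser. In NC chromosome 6 had 9.56 regions per Mb and chromosome 3 had 9.34, and in sh1 they had 10.1 and 9.73. In sh4 chromosome 5 had 10.5. Chromosome 6 also had the highest NC coverage of all, 5.04%. They made up 17.3% of all sh1 regions (16.8% to 17.9%, exact binomial), 17.3% of sh4 regions (16.8% to 17.8%) and 16.1% of NC regions (15.6% to 16.6%). In sh4 the far part of chromosome 1, beyond 140 Mb, stood apart from the rest of that list. Without it the other chromosomes had 6.35 regions per Mb in sh1, 6.54 in sh4 and 6.49 in NC. On chromosome 1 as a whole, input reads per kb of region were 28.0 in sh4 and 24.2 in NC, a ratio of 1.16, where the ratio on chromosome 4 was 0.911.

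The 3 chromosomes were not alike. Chromosome 4 held 1857 regions in sh1, 2207 in sh4 and 1760 in NC. Chromosome 13 held 956 in sh1, 966 in sh4 and 863 in NC, and chromosome 18 held 565 in sh1, 536 in sh4 and 543 in NC. Covered length on chromosome 4 was 8.51 Mb in sh1, 10.6 Mb in sh4 and 8.62 Mb in NC. On chromosome 13 it was 4.45 Mb in sh1, 4.52 Mb in sh4 and 4.17 Mb in NC, and on chromosome 18 it was 2.73 Mb in sh1, 2.53 Mb in sh4 and 2.76 Mb in NC. As a share of sequence, chromosome 4 had the most in sh4 (5.59%, against 4.54% in NC) and chromosome 18 the least in all 3 libraries (3.42% in sh1, 3.17% in sh4 and 3.46% in NC). Chromosome 18 has the fewest genes per Mb of all chromosomes, yet ranked from ninth to eleventh in coverage in the hairpins.

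**Figure D1:**
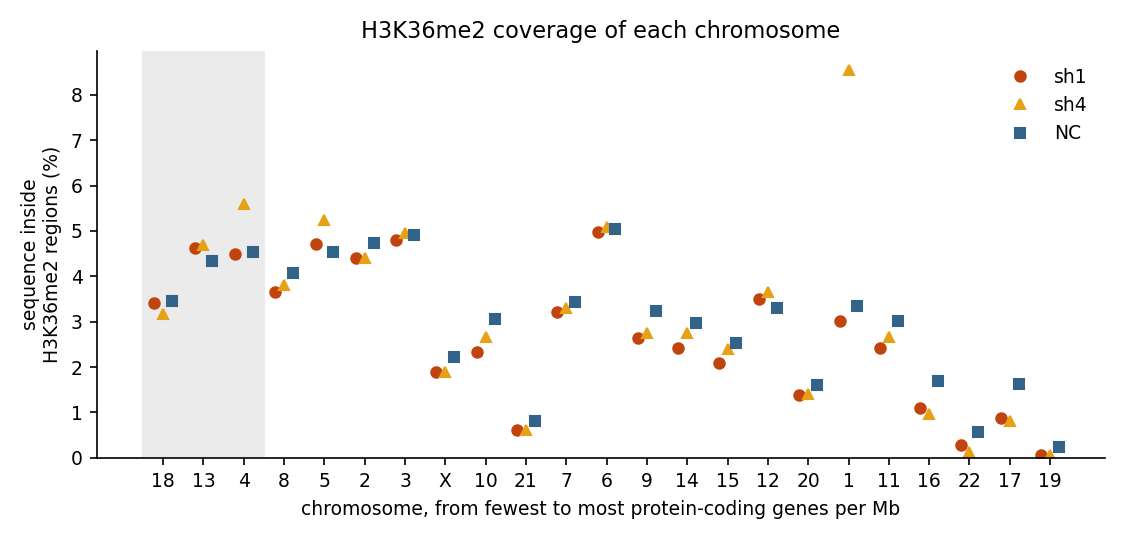
Percent of each chromosome's sequence inside H3K36me2 regions (vertical axis) for sh1 (circles), sh4 (triangles) and NC (squares), 1 library each. Chromosomes run from the fewest to the most protein-coding genes per Mb, and the shaded chromosomes 18, 13 and 4 lie between 3.17% and 5.59%, while chromosome 1 in sh4 stands above all others.

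Relative to NC, sh4 had 1.17 times as many regions on the 3 chromosomes (1.12 to 1.23) and sh1 had 1.07 times as many (1.02 to 1.12). The sh4 difference was mostly on chromosome 4, where the ratio was 1.25 (1.18 to 1.34). On chromosome 13 it was 1.12 (1.02 to 1.23) and on chromosome 18 it was 0.987 (0.874 to 1.11). Without chromosome 4 the sh4 ratio was 1.07 (0.993 to 1.15). In sh1 the ratio was 1.06 on chromosome 4 (0.988 to 1.13), 1.11 on chromosome 13 (1.01 to 1.22) and 1.04 on chromosome 18 (0.923 to 1.17). Covered length differed less: the ratio to NC was 1.01 in sh1 (0.954 to 1.07) and 1.13 in sh4 (1.08 to 1.20). The sizes depend on the limit set on regions: at an FDR of at most 1e-10 the length ratio was 1.52 in sh1 and 2.03 in sh4, and the count ratio was 1.59 in sh1 and 2.10 in sh4.

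Chromosome 4 was not alone in this. In sh4, chromosome 5, with 4.93 genes per Mb, had 1.22 times the NC count (1.14 to 1.31). In sh1 it had the highest ratio of all chromosomes, 1.11 (1.04 to 1.19). The ratios did not strictly follow gene density. Chromosome 8, with 4.87 genes per Mb, had 0.974 in sh1 (0.896 to 1.06) and 0.964 in sh4 (0.886 to 1.05). Chromosome 12, with 7.67 genes per Mb, had 1.08 in sh1 (0.985 to 1.19) and 1.13 in sh4 (1.03 to 1.24). At the gene-rich end, chromosome 19 held 6 regions in sh1, 6 in sh4 and 34 in NC. Set against the other chromosomes together, the count ratio on chromosomes 4, 13 and 18 was higher by a factor of 1.09 in sh1 (1.04 to 1.15) and also 1.09 in sh4 (1.03 to 1.15). With chromosome 1 beyond 140 Mb left out of the comparison, the relative ratio was 1.09 in sh1 (1.03 to 1.15) and 1.16 in sh4 (1.10 to 1.23). The sh4 value turned to the other side of 1 among regions with an FDR of at most 1e-10, where it was 0.958 (0.852 to 1.08). The sh1 value at that limit was 1.06, with an interval that included 1 (0.936 to 1.20).

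**Figure D2:**
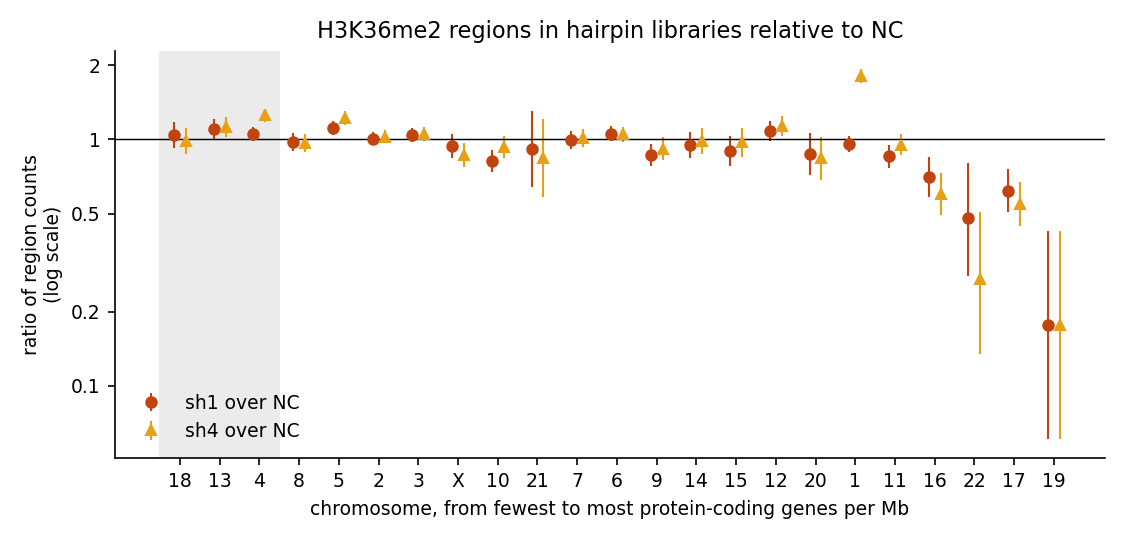
Number of H3K36me2 regions in sh1 (circles) and sh4 (triangles) divided by the number in NC, on a log axis, for each chromosome from the fewest to the most protein-coding genes per Mb. Bars are 95% intervals of counting error, the shaded chromosomes are 18, 13 and 4, and the ratios fall well under 1 on the gene-rich chromosomes 16, 22, 17 and 19 at the right.

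The regions themselves were of like size in the 3 libraries. Median width was 4000 bp in sh1, 4400 bp in sh4 and 4300 bp in NC, and the quartiles ran from 3000 to 5600 bp in sh1, 3400 to 5800 bp in sh4 and 3200 to 6000 bp in NC. Regions over 10 kb were few and more frequent in NC: 130 in sh1 (3.85%), 84 in sh4 (2.26%) and 154 in NC (4.86%). The widest was an sh1 region of 31800 bp in FARP1, a guanine nucleotide exchange factor of dendrites (chr13:98393001-98424800), with a deposited fold of 1.17. Neither sh4 nor NC had any region there. The widest sh4 region was 21000 bp long at chr13:73410001-73431000, 255089 bp from KLF12, a transcriptional repressor, with a fold of 1.34. The widest NC region, 22000 bp in DOCK9, an activator of CDC42 (chr13:98946601-98968600), had a fold of 1.29, and sh4 covered 6200 bp of it while sh1 covered none.

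Enrichment over input was modest everywhere. The deposited fold of a region, the authors' ratio of immunoprecipitate (IP) to input, had a median of 1.68 in sh1, 1.68 in sh4 and 1.62 in NC. Folds above 2 were more frequent in the hairpins, with 16.8% of regions in sh1, 16.5% in sh4 and 9.16% in NC. The other chromosomes had the same order against NC, with 13.3% in sh1, 14.2% in sh4 and 7.51% in NC. Read counts recovered from the deposited folds and p-values gave a median region 146 IP reads in sh1, 151 in sh4 and 157 in NC, over 84 input reads in sh1, 87 in sh4 and 95 in NC. Input reads per kb of region were 22.9 in sh1, 21.1 in sh4 and 23.3 in NC, and IP reads per kb were 37.4 in sh1, 35.4 in sh4 and 37.1 in NC. The part of input depth in the higher hairpin folds was not tested.

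Most regions were in sequence between protein-coding genes, and there the hairpin lists had more of them. Gene bodies make up 36.3% of the sequence of the 3 chromosomes, against 44.3% on the others. Of the covered length, 34.7% lay in gene bodies in sh1, 32.9% in sh4 and 37.5% in NC. By midpoint, 1133 sh1 regions were in gene bodies (33.5%, 31.9% to 35.2%), 1202 sh4 regions (32.4%, 30.9% to 33.9%) and 1154 NC regions (36.4%, 34.8% to 38.2%). The count in gene bodies relative to NC was 0.982 in sh1 (0.904 to 1.07) and 1.04 in sh4 (0.960 to 1.13). Between genes it was 1.12 in sh1 (1.05 to 1.19) and 1.25 in sh4 (1.17 to 1.32). In sh1 the mark covered 4.10% of gene bodies and 4.39% of the sequence between them, and in sh4 4.38% of gene bodies and 5.08% between them. NC had the opposite order, with 4.39% of gene bodies and 4.17% between them. For sh1 this contrast rests on protein-coding genes: with all annotated genes, 4.44% of bodies and 4.12% between them was covered in sh1, the same order as the 4.47% and 4.02% of NC. On the other chromosomes 43.1% of the covered length lay in gene bodies in sh1, 41.2% in sh4 and 45.9% in NC, beside the larger share of sequence that gene bodies take there.

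On each of the 3 chromosomes the share in bodies of protein-coding genes was lower in both hairpins than in NC. On chromosome 4 it was 35.8% of covered length in sh1, 34.0% in sh4 and 38.7% in NC. On chromosome 13 it was 31.2% in sh1, 29.7% in sh4 and 33.5% in NC, and on chromosome 18 it was 37.3% in sh1, 34.1% in sh4 and 40.0% in NC. With all annotated genes counted, noncoding ones too, the share over the 3 chromosomes was 53.2% in sh1, 50.6% in sh4 and 54.0% in NC. By that count the direction of sh1 turned on chromosome 13, with 50.3% in sh1 and 49.2% in NC, and on chromosome 18, with 54.7% in sh1 and 52.7% in NC, while sh4 stayed below NC on all 3.

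Within the 3 chromosomes, the balance between libraries followed local gene density. The sequence was cut into windows of 1 Mb, grouped by how many protein-coding genes each holds, and these groups were chosen with values in view. Windows with no gene held 604 regions in sh1, 792 in sh4 and 549 in NC, so that the ratio to NC was 1.10 in sh1 (0.978 to 1.24) and 1.44 in sh4 (1.29 to 1.61). Windows with 1 to 4 genes held 1732 in sh1, 1903 in sh4 and 1514 in NC, with ratios of 1.14 in sh1 (1.07 to 1.23) and 1.26 in sh4 (1.17 to 1.35). Windows with 5 to 9 genes had ratios close to 1, 0.982 in sh1 (0.895 to 1.08) and 0.964 in sh4 (0.877 to 1.06). In the 24 windows with 10 or more genes there were fewer regions in the hairpins, 150 in sh1 and 139 in sh4 against 195 in NC. Those ratios were 0.769 in sh1 (0.618 to 0.957) and 0.713 in sh4 (0.569 to 0.891).

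The ratio to NC in windows of 10 or more genes was 0.679 of that in windows of up to 4 genes for sh1 (0.541 to 0.852) and 0.546 of it for sh4 (0.432 to 0.687). The same quotient on the other chromosomes was 0.582 in sh1 (0.542 to 0.625) and 0.497 in sh4 (0.463 to 0.534), so the gradient is not particular to the gene-poor chromosomes. The sh1 interval reached 1.11 without chromosome 4, where the quotient was 0.712. In windows of 10 or more genes, chromosomes 4, 13 and 18 had 2.66 times the region density of the other chromosomes in sh1 (2.23 to 3.15), 2.64 in sh4 (2.20 to 3.15) and 2.19 in NC (1.88 to 2.54), with chromosome 1 beyond 140 Mb left out. In windows without genes the same comparison gave 1.39 in sh1 (1.26 to 1.53), 1.43 in sh4 (1.32 to 1.56) and 1.50 in NC (1.35 to 1.65). The class of 10 or more genes has no upper limit, so its ratios do not compare windows of matched gene density. Elsewhere it takes in windows of chromosome 19, which has 24.9 genes per Mb and 0.106 regions per Mb in sh1.

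**Figure D3:**
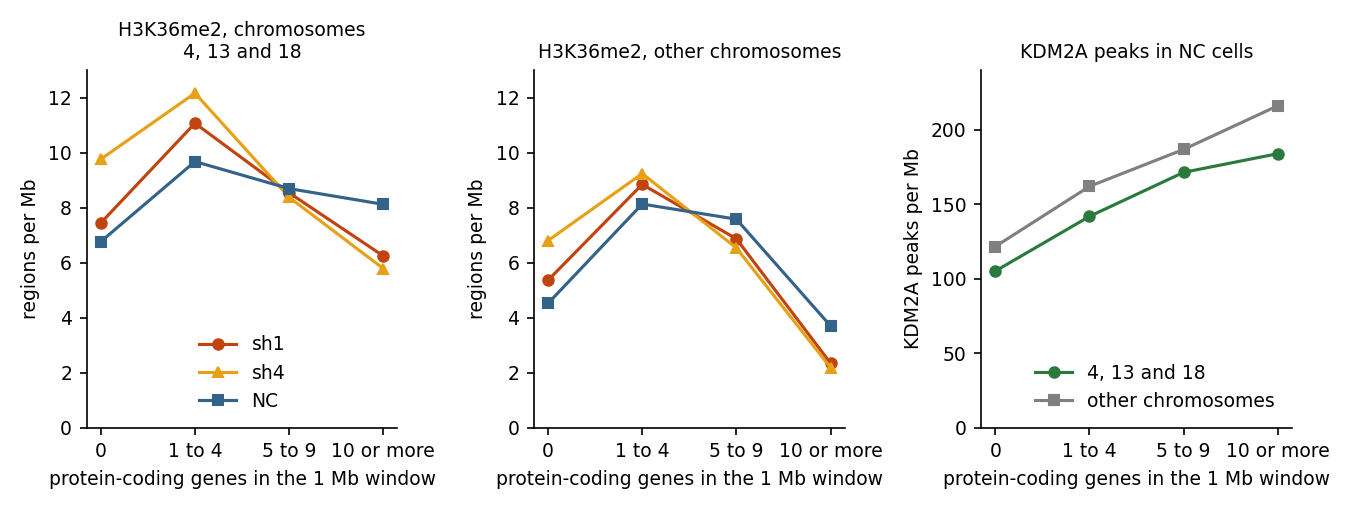
H3K36me2 regions per Mb in 1 Mb windows classed by protein-coding genes, on chromosomes 4, 13 and 18 (left) and on the other chromosomes without chromosome 1 beyond 140 Mb (middle), for sh1, sh4 and NC, and KDM2A peaks per Mb in the same windows (right). In both sets the hairpin libraries lie above NC in windows of 0 to 4 genes and below it in windows of 10 or more, while KDM2A peaks are denser in windows with more genes, from 105 to 184 per Mb on chromosomes 4, 13 and 18.

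Along the chromosomes the clearest difference was at the first 10 Mb of chromosome 4, a window picked after its values were seen. It is the most gene-rich 10 Mb of that chromosome, with 129 protein-coding genes, and holds the most KDM2A peaks, 2686. It held 4 H3K36me2 regions in sh1 and 2 in sh4, against 26 in NC. The end of chromosome 13, beyond 110 Mb, with 40 genes in 4.4 Mb of sequence, likewise held 5 regions in sh1 and 6 in sh4, against 13 in NC. In the gene-poor part of chromosome 4 from 170 to 180 Mb, with 21 genes, there were 94 regions in sh1 and 138 in sh4, against 72 in NC. That window had the highest sh4 ratio of the chromosome, 1.92, and windows with fewer genes differed less. From 130 to 140 Mb, with 13 genes, there were 120 in sh1 and 128 in sh4, against 107 in NC. On chromosome 13 from 60 to 70 Mb, with 6 genes, there were 76 in sh1 and 100 in sh4, against 94 in NC. The windows of chromosome 18 varied. From 30 to 40 Mb there were 93 regions in sh1 and 115 in sh4, against 87 in NC, and from 50 to 60 Mb 87 in sh1 and 56 in sh4, against 93 in NC. In others the hairpins differed from each other: its first 10 Mb held 83 regions in sh1 and 40 in sh4, against 69 in NC, and the stretch from 70 to 80 Mb held 19 in sh1 and 54 in sh4, against 32 in NC.

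Few regions were in the same place in any pair of libraries. Of the NC regions on the 3 chromosomes, 2268 had no overlap with a region of either hairpin, which is 71.6% (70.0% to 73.2%), beside 74.2% of NC regions of all chromosomes. Without overlap in sh1 were 83.8% of NC regions, beside 84.8% of all NC regions, and without overlap in sh4 were 84.5%, beside 86.1%. In the hairpins, 2861 sh1 regions had no overlap in NC (84.7%, beside 84.4% of all sh1 regions on chromosomes 1 to 22 and X), and 3210 sh4 regions (86.5%, beside 87.3% of all sh4 regions). These shares are near those of the whole lists, so they say nothing particular to the gene-poor chromosomes. The hairpin libraries also overlapped each other in few places, though in somewhat more than they overlapped NC: 81.8% of sh1 regions had no overlap in sh4 (80.5% to 83.1%), and 83.5% of sh4 regions had none in sh1 (82.3% to 84.7%). On the other chromosomes these shares were near, 82.5% for sh1 and 84.5% for sh4. The sh4 regions cover more of the sequence than those of NC, 4.82% against 4.25%, and the part of this was not tested. Chromosome 18 had the highest share of NC regions absent from both hairpins, 78.1% (74.4% to 81.5%), against 70.2% on chromosome 4 (68.0% to 72.4%) and 70.5% on chromosome 13 (67.3% to 73.5%).

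By length, NC shared 10.2% of its covered sequence with sh1 and 9.52% with sh4, where sh1 covered 4.28% and sh4 4.82% of all sequence. All 3 libraries shared 0.193 Mb. Sequence found in both hairpins and not in NC came to 1.67 Mb, that in sh1 and NC alone to 1.40 Mb and that in sh4 and NC alone to 1.29 Mb. Sequence found in a single library came to 12.4 Mb in sh1, 14.5 Mb in sh4 and 12.7 Mb in NC. Regions present in all 3 libraries were wider than those found in 1 library, with a median of 5200 bp against 3800 bp in sh1, 5200 bp against 4200 bp in sh4 and 6200 bp against 4000 bp in NC. Their median fold was lower, 1.59 against 1.69 in sh1, 1.58 against 1.70 in sh4 and 1.55 against 1.64 in NC. A wider region has more chance to overlap another, and that part was not tested.

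**Figure D4:**
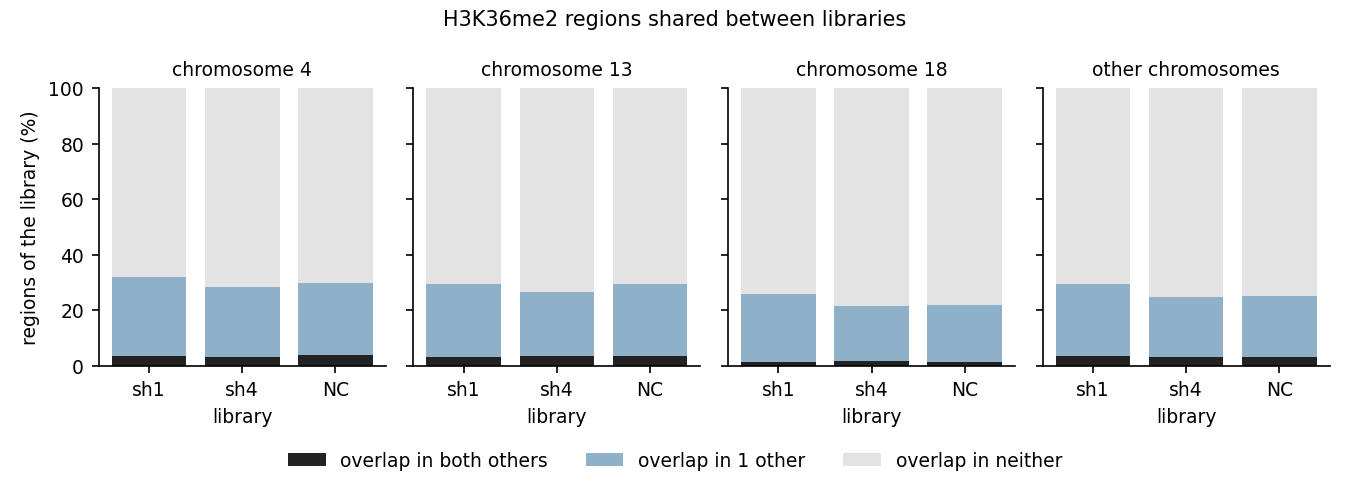
Percent of the H3K36me2 regions of each library (bars) that overlap a region in both other libraries, in 1 other or in neither, on chromosomes 4, 13 and 18 and on the other chromosomes together. On each chromosome at least 68.0% of regions overlap none in the other libraries, and chromosome 18 has the highest such shares.

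There were 537 stretches, 1.55 Mb in all, that both hairpins marked and no NC region touched. The widest was 11200 bp in RNF152, an E3 ubiquitin ligase of the lysosome (chr18:61844401-61855600), where the overlapping regions had folds of 1.45 in sh1 and 1.34 in sh4. Another, of 10200 bp, was in ARHGAP24, a GTPase-activating protein for RAC1 (chr4:85672201-85682400), with folds of 1.51 in sh1 and 1.54 in sh4. On chromosome 13 the widest, 8800 bp, was in GPC6, a cell-surface proteoglycan of the glypican family (chr13:94192401-94201200), with folds of 1.38 in sh1 and 1.36 in sh4. Others lay far from any protein-coding gene: a stretch of 8600 bp at chr4:181211001-181219600 is 228013 bp from TENM3, a teneurin of neuronal wiring, and one of 7400 bp at chr18:40949001-40956400 is 998834 bp from PIK3C3, the lipid kinase of autophagy.

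The widest NC regions that neither hairpin touched were 13200 to 18400 bp long on the 3 chromosomes, with folds of 1.21 to 1.39. One of 16000 bp was in GPRIN3, a protein of neurite growth (chr4:89275601-89291600), with 524 IP reads over 371 input reads. One of 18400 bp lay 41181 bp from CNMD, the cartilage protein chondromodulin (chr13:52781001-52799400), with 605 IP reads over 489 input reads. One of 17400 bp lay 8545 bp from EFNB2, an ephrin ligand of axon guidance (chr13:106463801-106481200), with 677 IP reads over 512 input reads. On chromosome 18 a region of 17000 bp was in CTIF, a translation factor of the cap-binding complex (chr18:48787601-48804600), with 686 IP reads over 560 input reads.

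Coverage of gene bodies, the percent of a gene's length inside regions, was lower than in NC in both hairpins for 266 of the 1368 protein-coding genes and higher in both for 136. That is 19.4% lower, beside 12.6% of protein-coding genes of all chromosomes, and 9.94% higher, beside 4.69%. Among regions with a fold above the NC median the counts were closer, with 169 genes lower and 128 higher. A further 130 genes were higher in one hairpin and lower in the other, and 663 had no region in any library. Genes without a region cannot differ, and they were more frequent elsewhere, 13338 of 18453 on the other chromosomes. Of the 705 genes here with a region in any library 266 were lower in both hairpins, and of 5115 such genes elsewhere 2226. Median gene length was 45.5 kb here and 23.4 kb elsewhere. At least 1 region touched 425 genes in sh1 (31.1%), 439 in sh4 (32.1%) and 476 in NC (34.8%). Both hairpins share the NC library as their control, so the same genes being lower in both is not independent support. The counting rule also treats the directions unequally. A gene with a region in NC alone counts as lower in both, while a gene with a region in a single hairpin alone counts as neither. The counts of 266 and 136 therefore cannot show that falls outnumber gains.

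The balance differed with gene length, on these chromosomes and on the others. The same unequal counting rule applies here. In sh1 21 genes under 20 kb had a region, in sh4 21 and in NC 31, and the part of the rule in the change with length was not tested. Of 390 genes under 20 kb, 27 had lower (6.92%) and 2 had higher coverage (0.513%) in both hairpins, against 2.48% lower and 0.142% higher of such genes on the other chromosomes. Of 602 genes of 20 to 100 kb, 119 were lower (19.8%) and 45 higher (7.48%), against 15.1% and 2.92% elsewhere. Of 339 genes of 100 to 500 kb, 114 were lower (33.6%) and 75 higher (22.1%), against 32.4% and 18.4% elsewhere. Among the 37 genes over 500 kb the order turned, with 6 lower and 14 higher, and mean coverage was 4.79% in sh1, 5.61% in sh4 and 4.01% in NC. On the other chromosomes, 83 of 277 such genes were lower and 80 higher.

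The genes whose coverage in both hairpins lay furthest below NC were mostly short. C1QTNF9B, a secreted C1q-domain protein, was covered over 0% in sh1, 0% in sh4 and 92.2% in NC. Its near-identical copy C1QTNF9 lies on the same chromosome, so its reads are uncertain. TRIM60, a tripartite-motif protein, had 0% in sh1, 0% in sh4 and 57.5% in NC. CTSO, the lysosomal protease cathepsin O, had 2.30% in sh1, 24.2% in sh4 and 80.5% in NC. SERPINB8, an intracellular protease inhibitor, had 6.44% in sh1, 12.5% in sh4 and 46.7% in NC. SCPPPQ1, CBY2, SMR3A and JCHAIN had no region in sh1 or sh4 and 53.2%, 38.2%, 36.8% and 34.6% in NC. JCHAIN joins immunoglobulin chains in plasma cells, and SMR3A is a salivary protein. Each of these genes is at most 49699 bp long, so a single region or a few set its value.

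Differences above NC were smaller in this ranking, which favours falls. A gain needs a region in both hairpins at the same gene, while a fall needs only a region in NC. Genes covered in a single hairpin alone rank at 0, such as ADH7 with 0% in sh1, 45.9% in sh4 and 0% in NC. SPARCL1, a matrix protein of astrocytes that promotes synapse formation, was covered over 18.9% in sh1, 23.9% in sh4 and 0% in NC. BBS12, a chaperonin-like protein of the cilium, had 22.8% in sh1, 30.0% in sh4 and 6.16% in NC. GPR183, an oxysterol receptor of immune cells, had 32.7% in sh1, 16.0% in sh4 and 0% in NC. It also had a KDM2A peak near an end, with a deposited fold of 3.98. ANXA3, an annexin, had 15.8% in sh1, 28.3% in sh4 and 0% in NC, and CNMD had 18.1% in sh1, 27.4% in sh4 and 4.92% in NC. RNF152, ETNPPL, a phospholyase of astrocytes and liver, and NPFFR2, a neuropeptide receptor, had from 13.8% to 15.1% in sh1, from 15.4% to 19.9% in sh4 and none in NC.

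Over all genes of the 3 chromosomes, as given above, 19.4% had lower and 9.94% had higher coverage in both hairpins. In the lists below, a gene covered in NC alone is not unusual, since 71.6% of NC regions had no overlap in either hairpin. Of 24 neural transcription factors, 4 were lower (16.7%) and 3 higher (12.5%), and 13 had no region in any library. LDB2, a LIM-domain binding cofactor, had 6.19% in sh1, 11.8% in sh4 and 16.2% in NC. NFATC1, a calcium-regulated factor, had 0% in sh1, 0% in sh4 and 3.30% in NC. DACH1, a factor of neural progenitors, went the other way, with 2.56% in sh1, 2.80% in sh4 and 0.652% in NC. The zinc-finger factor SALL3 had no H3K36me2 region in any library, and a KDM2A peak with a fold of 4.10.

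Adhesion genes gave 6 lower and 6 higher of 23, 26.1% each. SLITRK6, a neuronal transmembrane protein of the inner ear and retina, had 0% in sh1, 0% in sh4 and 21.1% in NC. Protocadherin PCDH7 had 5.44% in sh1, 2.35% in sh4 and 16.5% in NC. PCDH18, its relative, had 0% in sh1, 0% in sh4 and 8.06% in NC. Of 13 genes of axon guidance and neuronal migration, 2 were lower (15.4%) and 3 higher (23.1%). The netrin receptor UNC5C had 17.8% in sh1, 13.4% in sh4 and 8.44% in NC, and the secreted protein NDNF had 4.33% in sh1, 21.7% in sh4 and 0% in NC. DCLK1, a microtubule-binding kinase of migrating neurons, had 7.05% in sh1, 8.37% in sh4 and 4.35% in NC.

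Of 20 neurotransmitter receptors and channels, 1 was lower (5%) and 2 were higher (10%). The glutamate receptor subunit GRIA2 had 6.17% in sh1, 4.66% in sh4 and 2.60% in NC, and the mechanosensitive channel PIEZO2 had 1.63% in sh1, 2.34% in sh4 and 1.13% in NC. The list of MAPK signalling and growth factors had 7 lower and 1 higher of 26, which are 26.9% and 3.85%. Among them, the insulin receptor substrate IRS2, the PDGF receptor PDGFRA and the TGF-beta inhibitor SMAD7 had no region in sh1 or sh4, and in NC 10.6% of IRS2, 7.54% of PDGFRA and 7.07% of SMAD7 was covered. These genes are 31113 to 68953 bp long, so a single region or a few set each value. MAPK4, an atypical MAP kinase, had 3.02% in sh1, 2.21% in sh4 and 9.06% in NC. MAPK10, the neuronal JNK kinase, had the opposite order, with 9.90% in sh1, 10.9% in sh4 and 7.37% in NC.

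Of 19 genes of chromatin and the cell cycle, 3 were lower (15.8%) and 2 higher (10.5%). The chromatin remodeller SMARCAD1 and the cell-cycle inhibitor RB1 had no region in sh1 or sh4, and in NC 9.32% of SMARCAD1 and 3.93% of RB1 was covered. The lysine methyltransferase SETD7 had 6.05% in sh1, 3.20% in sh4 and 0% in NC. Among 57 genes of clusters that serve liver, epithelium and immunity, such as keratinocyte desmogleins, alcohol dehydrogenases and chemokines, 3 were lower (5.26%) and 2 higher (3.51%), and 40 had no region in any library. The desmoglein DSG3 had 0% in sh1, 0% in sh4 and 15.5% in NC, and AFM, the plasma protein afamin, had 4.74% in sh1, 27.9% in sh4 and 0% in NC. Median coverage difference to NC was 0 percentage points in both hairpins over all 1368 genes. It was also 0 in each list, except in sh4 for adhesion, where it was 0.452, and for axon guidance, where it was 2.12.

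KDM2A peaks were sparser on chromosomes 4, 13 and 18 than elsewhere. The NC list held 53045 of them there, 145.0 per Mb against 176.8 per Mb on the other chromosomes, a ratio of 0.820 (0.813 to 0.827). Chromosome 4 had the lowest density of all chromosomes, 141.2 per Mb, and chromosome 13 the next, 141.7. Chromosome 18 had 158.0 per Mb, the fifth lowest, although it has the fewest genes per Mb. The deposited list is broad: 2.83% of its peaks on the 3 chromosomes had an FDR under 0.05. Among those the density was 4.10 per Mb against 5.49 per Mb elsewhere, a ratio of 0.746 (0.707 to 0.787). Across local classes, windows of 1 Mb without genes held 105 peaks per Mb, windows of 1 to 4 genes 142, of 5 to 9 genes 171 and of 10 or more genes 184.

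Peaks gathered at gene starts. Around the 1190 listed starts of the 3 chromosomes there were 393 KDM2A peaks per Mb within 500 bp (358 to 431) and 256 within 2 kb (242 to 270), against 181 at 5 to 10 kb before the start (170 to 192) and 159 at 5 to 10 kb after it (149 to 169). The other chromosomes had 373 per Mb within 500 bp (363 to 383). H3K36me2 had the reverse profile. Within 2 kb of a start, 1.86% of the sequence was covered in sh1, 1.56% in sh4 and 2.31% in NC, and at 5 to 10 kb before the start 3.90% in sh1, 3.51% in sh4 and 3.90% in NC. At 5 to 10 kb after the start 2.86% was covered in sh1, 3.69% in sh4 and 3.15% in NC, so there sh4 lay above NC. Coverage within 2 kb of starts was thus lower in both hairpins than in NC. On the other chromosomes it was 0.683% in sh1, 0.694% in sh4 and 1.07% in NC.

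**Figure D5:**
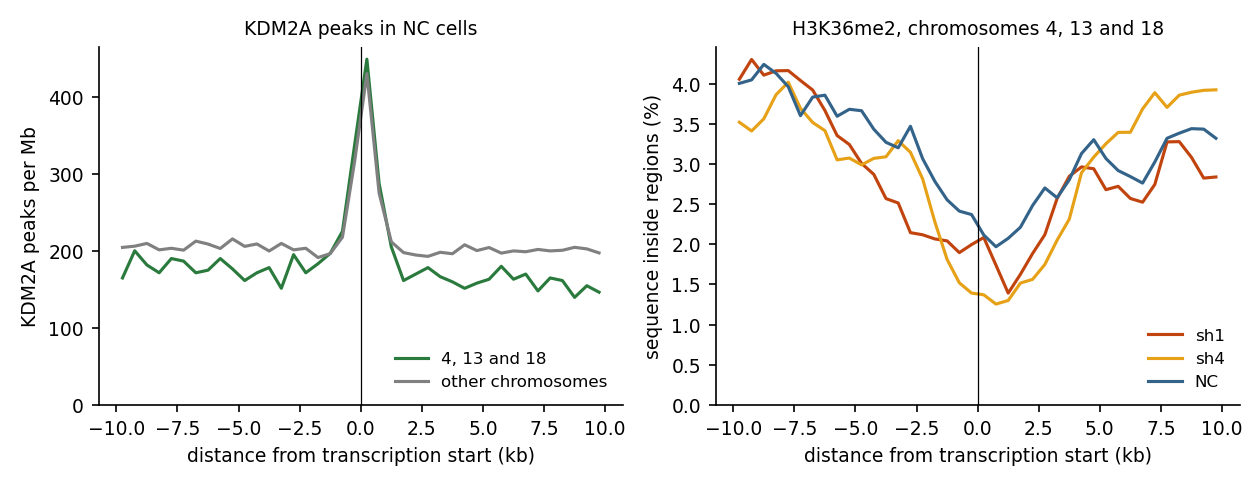
KDM2A peaks per Mb in NC cells (left) around gene starts of chromosomes 4, 13 and 18 (green) and of the other chromosomes (grey), and percent of sequence inside H3K36me2 regions (right) around the starts of chromosomes 4, 13 and 18 for sh1, sh4 and NC. Distance is in kb and negative before the start. KDM2A peaks are densest at the start, and H3K36me2 coverage is lowest close to it in each library.

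Starts with a KDM2A peak held more CG steps, and starts inside H3K36me2 regions fewer, in the median, with exceptions such as DRD5 among the printed sequences. The 486 starts with a KDM2A peak within 500 bp had a median of 27 CG steps in 300 bases, and the 704 without one had 19. A peak was within 500 bp of 17.2% of starts with 0 to 4 CG steps (12.3% to 23.0%), of 35.6% of those with 5 to 14 (28.8% to 42.7%) and of 48.2% of those with 15 or more (44.7% to 51.8%). These shares use the whole KDM2A list. Peaks with an FDR under 0.05 were near 0 of 204 starts, 5 of 194 (2.58%) and 15 of 792 (1.89%) in the same classes. Among those few starts the rise from the middle to the top class was not seen. Starts inside H3K36me2 regions were few, 24 in sh1, 16 in sh4 and 29 in NC, with medians of 11 CG steps in sh1, 3 in sh4 and 5 in NC, where all 1190 starts had a median of 24. Of the 792 starts with 15 or more CG steps, 11 lay inside a region in sh1, 1 in sh4 and 8 in NC, among them DRD5.

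A KDM2A peak lay within 2 kb of an end of 1080 of the 1368 genes (78.9%, beside 84.0% of all protein-coding genes), and a peak with an FDR under 0.05 near 70 (5.12%, beside 5.5%). The highest deposited folds were 4.73 at ATP9B, a phospholipid flippase, 4.73 at KCNIP4 and 4.64 at KLB, the beta-klotho co-receptor of FGF hormones. They were followed by AP1AR with 4.55, the laminin chain LAMA3 with 4.37, C13orf42 with 4.33 and the ubiquitin ligase NEDD4L with 4.15. USP17L11 had 4.57, but it belongs to a family of near-identical deubiquitinase copies on chromosome 4 and is uncertain. AP1AR had H3K36me2 over 0% of its body in sh1, 0% in sh4 and 9.68% in NC, and ATP9B over 2.01% in sh1, 3.69% in sh4 and 8.16% in NC. KLB had no region in any library, and NEDD4L had 9.01% in sh1, 1.18% in sh4 and 4.76% in NC.

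Among the listed genes, EFNB2 had a KDM2A fold of 3.19 and was covered in sh1 alone (22.2%), the serotonin receptor HTR2A had 3.35 and was covered in sh4 alone (13.8%), and so was KDR, the VEGF receptor (fold 3.15, 13.2% in sh4). Cadherin CDH20 had a KDM2A fold of 3.75, and 5.04% of its body was covered in sh1, 0% in sh4 and 7.91% in NC. ING2, a reader of H3K4 methylation, HMGB2, a chromatin protein of dividing cells, and PLK4, the kinase of centriole duplication, had folds of 3.62, 3.19 and 2.85 and no H3K36me2 region in any library. The chemokine CXCL5 (fold 3.66) and the alcohol dehydrogenase ADH1B (fold 3.47) also had none, while ADH7 (fold 3.30) was covered over 45.9% in sh4 and 0% in sh1 and NC. The KDM2A peaks of HTR2A, CDH20, ING2 and CXCL5 had an FDR under 0.05. Those of EFNB2, KDR, HMGB2, PLK4, ADH1B and ADH7 did not, with values from 0.0644 at ADH1B to 0.186 at PLK4.

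Over all sequence, KDM2A peaks were denser inside H3K36me2 regions than outside them. Inside the regions of the 3 chromosomes there were 189 peaks per Mb in sh1 (a ratio to the density outside of 1.32, 1.27 to 1.37), 166 per Mb in sh4 (1.15, 1.11 to 1.20) and 194 per Mb in NC (1.36, 1.31 to 1.41). On the other chromosomes the same ratio was 1.10 in sh1 (1.08 to 1.12), 0.937 in sh4 (0.922 to 0.952) and 1.17 in NC (1.15 to 1.19). Among peaks with an FDR under 0.05 the interval for NC on the 3 chromosomes included 1 (1.15, 0.899 to 1.46), and on the other chromosomes the ratio was below 1 (0.804, 0.724 to 0.890). NC regions found in no hairpin list held 197 peaks per Mb (189 to 206), those shared with 1 hairpin 192 (179 to 205) and the 105 in all 3 libraries 154 (126 to 187). The hairpin lists did not have this order. Regions found in 1 list, shared with 1 other and in all 3 held 189, 189 and 180 per Mb in sh1, and 161, 179 and 163 in sh4. KDM2A and H3K36me2 were read in separate libraries of NC cells, and a part played by local depth in both was not tested.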

How the data were processed

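4 deposited lists were used, 1 library each: H3K36me2 regions of sh1, sh4 and NC, and KDM2A peaks of NC. The tools Bowtie 1.1.2, MACS2 and SICER, and hg38 and GRCh38 as builds, stand in the submitters' processing notes, and their roles and settings are not given in the sources used here. The authors' fold in the H3K36me2 lists is a linear ratio of IP to input per region, and in the KDM2A list a ratio of IP to local background. The deposited p-value and FDR come from the authors' peak calling, with every H3K36me2 FDR under 1e-05 and the KDM2A FDR reaching 0.869. The deposited pileup of KDM2A is a signal (fragments stacked at the peak). The deposited score of the H3K36me2 lists was not used.

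From fold and p-value, IP and input read counts were recovered under a Poisson model, and 100% came out whole (within 0.001 for IP, 0.01 for input). The lists hold no library totals. KDM2A depth is unknown. Coordinates are 1-based on GRCh38. Protein-coding genes (19821, after 153 on alternate sequences were left out), starts and promoter sequences came from RefSeq tables of GRCh38.p14, and 1190 of the 1368 genes of chromosomes 4, 13 and 18 matched a listed start, the most upstream one being used. Overlap means at least 1 shared base. Regions and peaks were placed by midpoint where counted in windows or gene bodies. In sh1, 1 region lies outside chromosomes 1 to 22 and X and was left out of the shares over all chromosomes.

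Intervals are exact Poisson, Clopper-Pearson or conditional ones at 95%, computed with Python 3.11.15, numpy 2.4.6, scipy 1.17.1 and pandas 2.3.3 and tested on simulated data. Intervals of length ratios treat regions as independent. Named genes of at least 5 kb were the 8 largest falls and gains in coverage, ranked by the smaller change of both hairpins, up to 4 per list, and for KDM2A the 8 highest folds within 2 kb of either gene end, with up to 3 from each list; widest regions were taken per chromosome. Values of 1 gene that this rule names are not reported here. Starts were shown for the highest KDM2A folds and for regions of NC or both hairpins. The chromosomes and the 7 lists of 182 genes were chosen with earlier results of these data known. Alternatives were limits on fold, FDR and width, joined regions, other overlap rules, other gene sets and leaving out each chromosome. A binomial limit on the recovered reads, and every alternative for the gene-density quotients, were chosen after seeing the data.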

Additional observations from a re-analysis of the deposited data

How the results depend on the processing

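Of 80 alternatives, 35 stayed within the counting interval of the reported value (counts of genes within 1.5 times), 43 moved beyond it and 2 turned round. No paired analysis was possible because every group holds a single library and no test was made. Stricter limits moved the count ratios to NC up in both hairpins: in sh1 to 1.25 for folds above the NC median of 1.59, 1.59 for FDR of at most 1e-10 and 1.41 for the binomial limit, and in sh4 to 1.39 (fold), 2.10 (FDR) and 1.74 (binomial). The sh4 ratio was 1.25 for regions of at least 3 kb and 1.07 without chromosome 4. Length ratios were 1.24 (fold), 1.52 (FDR) and 1.33 (binomial) in sh1, and 1.55, 2.03 and 1.65 in sh4, and the sh4 length ratio was 1.02 without chromosome 4. Relative to the other chromosomes the sh4 value was 1.16 without chromosome 1 beyond 140 Mb. It turned to 0.958 at the FDR limit and 0.967 at the binomial limit, and the cause was not tested. At the fold limit it was 1.05 with an interval that included 1 (0.984 to 1.13). The sh1 value stayed above 1, from 1.04 to 1.09, but its interval included 1 at each stricter limit. These intervals were 0.967 to 1.11 (fold), 0.936 to 1.20 (FDR) and 0.932 to 1.15 (binomial).

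Midpoints in gene bodies were 31.6% in sh1 and 34.4% in NC at the fold limit, 29.4% in sh1 and 33.9% in NC at the binomial limit, and with all annotated genes 52.0% in sh1, 50.4% in sh4 and 53.1% in NC. NC regions absent from both hairpins were 75.9% (fold), 68.1% (binomial), 82.0% when 50% of a region had to overlap and 55.4% when regions within 5 kb counted as shared. Absent from NC were 87.0% (fold), 90.2% (overlap of 50%) and 73.9% (5 kb) of sh1 regions, and 88.7%, 91.5% and 76.8% of sh4 regions. KDM2A density relative to the other chromosomes was 0.746 (FDR under 0.05) and 0.868 (10% highest folds), and inside over outside NC regions 1.15 and 1.05. Genes with a KDM2A peak at an end were 5.12% (FDR), 15.7% (highest folds) and 65.1% within 1 kb. Genes with lower coverage in both hairpins were 169 at the fold limit, against 128 with higher coverage. The gene-density quotient of sh1 was 0.430 at the FDR limit and 0.538 at the binomial limit.

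The limits are those of 1 library per group. A region with the median of 84 to 95 input reads carries a counting error of its own, most regions were found in a single list, and part of the overlap and of the differences may lie within that error. The read depth behind the KDM2A peaks is unknown.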
